A study of Mus musculus with 8 samples.

Results

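The cytosolic ribosomal proteins were taken as all probes whose gene symbol is Rpl or Rps followed by a digit, without the S6 kinases, Rps19bp1 and pseudogenes. The rule found 77 of 25697 probes, 49 for proteins of the large subunit and 28 for proteins of the small subunit, and these named 61 of 16593 genes, 37 and 24 in the same order. Of the 77 probes, 68 from 56 genes had a detection p under 0.05 on at least 2 of 8 arrays and were tested, 42 of the large and 26 of the small subunit. The proteins under other symbols, such as Rplp1 of the stalk and Fau, fall outside the rule and were counted apart.

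The cells were NIH 3T3, an embryonic mouse fibroblast line, and no allele, drug or transgene is named in the sample labels. They were incubated with unused Claycomb media (3 arrays), with Claycomb media transferred from cultured cardiomyocytes (cardiomyocyte media, 3 arrays) or with the supernatant of such media after ultracentrifugation (media supernatant, 2 arrays). Claycomb media is the growth medium of HL-1 cells, the contracting mouse atrial line that served as cardiomyocytes, and all groups share it. Slower spins had cleared cell debris before ultracentrifugation, and no array held unused media that had been spun, so the effect of centrifugation and of the removed material cannot be told apart. The study measured gene expression in the recipient fibroblasts to find signals that pass from cardiomyocytes to fibroblasts. RNA was isolated from wells, and it is not stated whether these came from separate experiments. The p-values below therefore cover the spread among the 8 arrays alone, which may be technical.

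A ribosome of the cytosol is built from a large and a small subunit, each of ribosomal RNA and many proteins that are needed in near equal number. The small subunit reads the mRNA and the large subunit joins the amino acids. In mammalian cells mRNAs of these proteins are among the most abundant, and most begin with a C followed by a run of pyrimidines, the 5′ terminal oligopyrimidine motif, through which mTORC1 signalling controls their translation. Bead arrays measure the amount of such mRNAs and not their translation.

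The windows below run from 15 bases before an annotated start to 15 bases from it, in RefSeq on GRCm38.p6. They are shown because Rpl22 and Rps15a passed the test lower with cardiomyocyte media and Rpl4 was close to the threshold. The others, Rpl38, Rps27 and Rps6, are bright members that did not pass it. Capitals mark a run of C and T that begins with a C at the start base and goes on for at least 4 bases.
Rpl22, chr4:152325711-152325740, plus strand: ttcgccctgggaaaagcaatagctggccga
Rpl22, chr4:152324421-152324450, plus strand: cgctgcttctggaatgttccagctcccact
Rps15a, chr7:118116133-118116162, minus strand: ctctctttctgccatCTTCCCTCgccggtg
Rpl4, chr9:64173372-64173401, plus strand: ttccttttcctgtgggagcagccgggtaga
Rpl38, chr11:114668565-114668594, plus strand: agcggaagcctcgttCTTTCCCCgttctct
Rps27, chr3:90213634-90213663, minus strand: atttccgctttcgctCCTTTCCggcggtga
Rps6, chr4:86857353-86857382, minus strand: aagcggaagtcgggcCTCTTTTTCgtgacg

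The run was searched on the gene's own strand and only at the annotated start base, so a start that lies a few bases off is not counted. Of the 61 genes 53 had a start in the table, and 10 of these (18.9%) carried the run, beside 813 of 27025 genes of the whole table (3.01%). The 10 genes were Rpl14, Rpl28, Rpl35, Rpl35a, Rpl38, Rps6, Rps10, Rps15a, Rps21 and Rps27. With cardiomyocyte media the 10 tested probes of genes with the run had a median log2 fold change of -0.02, and the 48 of genes without it one of -0.15. With media supernatant the medians were -0.12 and -0.11, and between the treatments -0.05 and 0.03. Rps15a, which fell most, carried the run, and Rpl22 did not.

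Ribosomal protein probes were among the brightest on every array. Signals are given after background correction and quantile normalization, on the linear scale with the offset of 16 taken off. Of 68 tested members 53 lay in the brightest 10% of the 12013 tested probes (1202 probes), 7 among the brightest 10 and 33 among the brightest 100. The mean signal over 8 arrays was above 10000 for 30 members and under 500 for 11. Brightness also depends on how well a probe binds, so it places a probe on the scale of the array and does not rank transcripts. Probes for one gene could differ widely in signal, and the cause was not tested. Rpl37, a large subunit protein, had a probe of mean signal 26425 and another of 15.4, and Rps19, a small subunit protein, had probes of 21787 and 53.4.

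**Figure D1:**
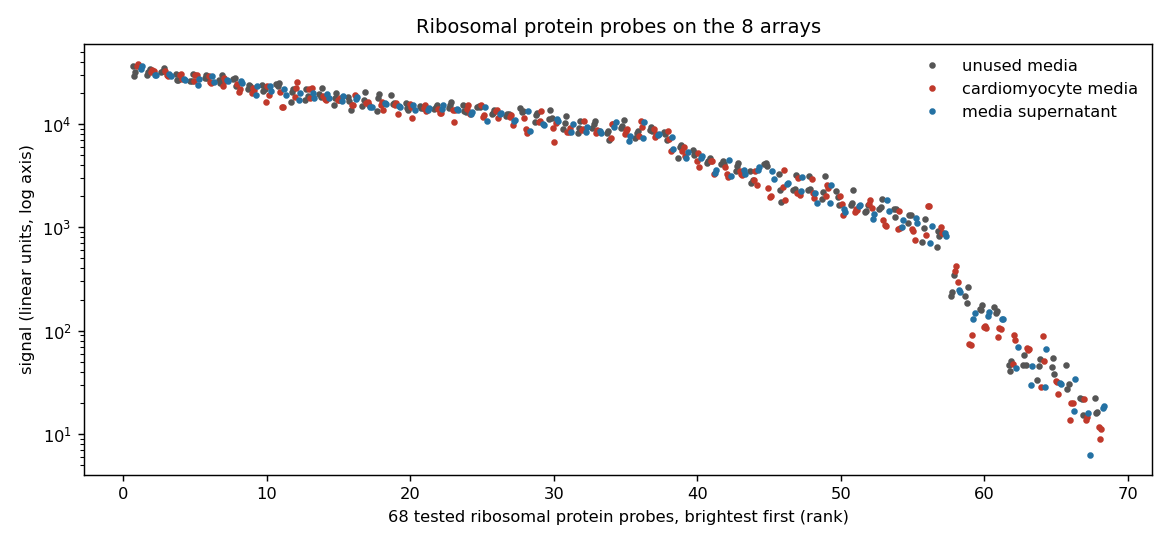
Signal of the 68 tested ribosomal protein probes (linear units, log axis) against their rank by mean signal, with 1 point for each of the 8 arrays and colours for the media. Of the probes 30 have a mean above 10000 and 11 one under 500, and the colours overlap for most of them.

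The brightest member was Rpl41, a very short basic peptide of the large subunit. Its signal was 36340, 29131 and 31608 on the arrays of unused media, 36340, 38411 and 36340 with cardiomyocyte media, and 34301 and 36340 with media supernatant. Several values are equal since quantile normalization gives the same signal to the same rank. The groups overlapped (log2 fold change 0.20, standard error 0.16, adjusted p = 0.485 from limma with cardiomyocyte media). The value of 38411 is the top signal that quantile normalization can give, so a rise beyond it would not show in this fold change. Rpl38, a large subunit protein known from mice for its part in Hox mRNA translation, had signals of 30082 to 34301 on all 8 arrays with its brighter probe. Rps20, a small subunit protein, had signals of 29131 to 34895. For both, the arrays of cardiomyocyte media overlapped those of unused media, with log2 fold changes of 0.02 and -0.12.

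The remaining facts concern all arrays. The arrays lay on 2 chips, and chip 1 held all 3 of unused media with replicate 1 of each treatment. The arrays of chip 1 had a background of 89.1 to 93.1 and those of chip 2 one of 47.1 to 48.0, and 10545 to 11758 probes were detected. Marker signals were summed after background correction but without scaling between arrays. The total signal before scaling ran from 7049210 (unused media replicate 1) to 9686700 (cardiomyocyte media replicate 3). All 8 fibroblast markers on the array, such as Col1a1, were detected on all arrays (summed signal 35306 to 43097 for unused media, 47568 to 54723 for cardiomyocyte media, 45598 to 55196 for media supernatant). Of 14 cardiomyocyte markers 1 to 4 were detected on an array, and Actc1, Myl2, Myl3, Nppb, Pln, Ryr2, Tnni3 and Ttn on none (summed signal 302 to 510, 282 to 343 and 207 to 313). Unused media replicate 3 stood apart in the spread between beads, with a median standard error of 8.58% of the signal over the members beside 3.59 to 4.50% on the other arrays.

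With cardiomyocyte media, compared to unused media, the probes of Rpl22 and Rps15a passed the test lower and no ribosomal protein probe passed it higher. Of 68 members 0 passed higher and 2 lower at an adjusted p under 0.05, where 6.45% of all tested probes passed in either direction, 3.36% higher and 3.09% lower. The 2 members are 2.94% of the 68, close to that background. The median log2 fold change of the members was -0.13, -0.15 for the large and -0.11 for the small subunit, beside 0.01 for all tested probes. Among the 1149 other probes of the brightest 10% it was -0.01. Below 0 lay 50 of 68 members, compared to 49.6% of all tested probes. The members share arrays and scaling, so these counts are not of independent values. These signals are relative to the whole array and do not give the amount of RNA per cell.

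Rpl22 is a large subunit protein that binds RNA outside the ribosome as well, and in mice it is needed for the development of αβ T cells. Its probe (ILMN_2659229, gene on chromosome 4, 152324436 to 152334082) had signals of 4108, 4186 and 3963 with unused media. With cardiomyocyte media the signals were 2406, 1978 and 2011, and with media supernatant 3498 and 2944. All arrays of cardiomyocyte media lay below all of unused media, and the supernatant arrays lay between them. The log2 fold change with cardiomyocyte media was -0.94 (standard error 0.17, 95% interval -1.31 to -0.57, adjusted p = 0.00756 from limma). With media supernatant it was -0.35 (standard error 0.19, adjusted p = 0.538), and supernatant minus cardiomyocyte media was 0.59 (standard error 0.19, adjusted p = 0.144).

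Rps15a is a small subunit protein. Its probe (ILMN_2717621, gene on chromosome 7, 118104374 to 118116147) was dim for a member but detected on all arrays. It was the only probe of the gene, so the fall could not be compared with that of another probe. The signals were 218, 185 and 267 with unused media, 74.6, 73.2 and 90.4 with cardiomyocyte media, and 131 and 148 with media supernatant. Before normalization the intensities were 282, 291 and 343, then 169, 113 and 157, then 235 and 204. The higher background of chip 1, which held all arrays of unused media, moves these uncorrected intensities in the same order. Among the arrays of chip 1 alone they were 282 to 343 with unused media, 169 with cardiomyocyte media and 235 with the supernatant. The log2 fold change with cardiomyocyte media was -1.32 (standard error 0.18, 95% interval -1.72 to -0.91, adjusted p = 0.00166 from limma). With media supernatant it was -0.61 (standard error 0.21, adjusted p = 0.279), and supernatant minus cardiomyocyte media was 0.70 (standard error 0.21, adjusted p = 0.107).

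**Figure D2:**
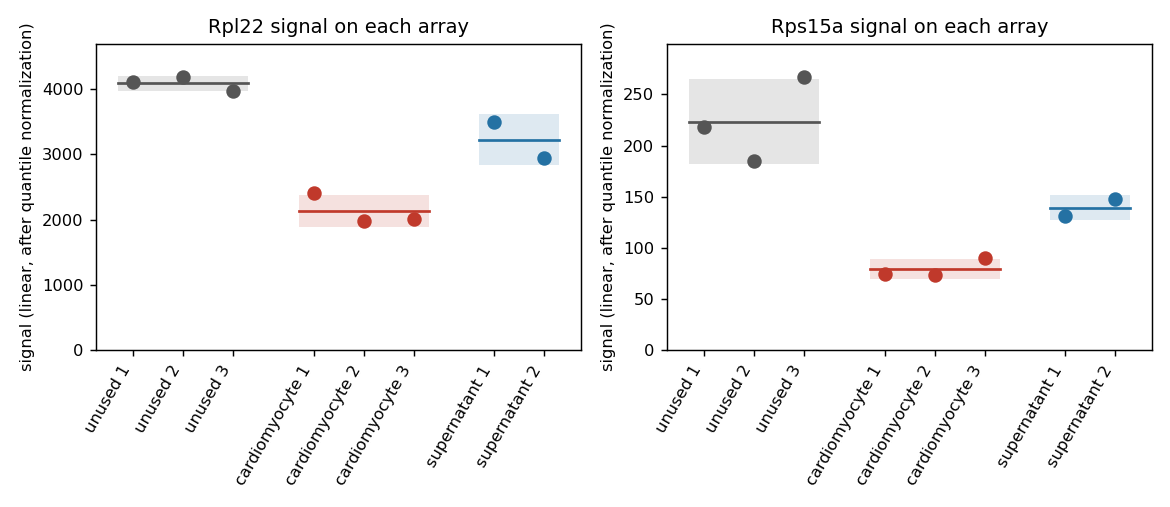
Signal (linear, after quantile normalization) of Rpl22 and Rps15a on each of the 8 arrays, with the mean as a line and 1 SD as a band (n = 3, 3 and 2 arrays). All arrays of cardiomyocyte media lie below those of unused media, 1978 to 2406 against 3963 to 4186 for Rpl22 and 73.2 to 90.4 against 185 to 267 for Rps15a, with the supernatant arrays between.

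Since chip 2 held no array of unused media, both falls were also computed within chip 1 and with chip as a block. With chip as a block the log2 fold change was -0.77 for Rpl22 (adjusted p = 0.0373 from limma) and -1.40 for Rps15a (adjusted p = 0.00466). Within chip 1, where cardiomyocyte media has 1 array that was assumed to vary like the others, it was -0.76 for Rpl22 (adjusted p = 0.266) and -1.39 for Rps15a (adjusted p = 0.0717), and no member passed. Without unused media replicate 3 both passed, at -0.96 (adjusted p = 0.0222) and -1.19 (adjusted p = 0.00827). Over 30 alternative settings the value of Rpl22 lay between -1.03 and -0.76 and that of Rps15a between -1.44 and -0.95. Some of these settings give the same fit for this comparison.

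An unadjusted p under 0.05 was reached by 11 members lower and 0 higher, beside 11.8% and 11.9% of all tested probes. After Rps15a and Rpl22 the smallest p-values were those of Rpl21, Rpl4 and Rpl23. Rpl21 (chromosome 5, 146832890 to 146837032), a large subunit protein, has a pair of probes of nearly equal brightness. The probe with the smaller p had signals of 169, 149 and 154 with unused media, 87.0, 107 and 104 with cardiomyocyte media, and 130 and 131 with media supernatant. The log2 fold changes with cardiomyocyte media were -0.59 (adjusted p = 0.0586 from limma) and, for the other probe, -0.55 (adjusted p = 0.0643). Neither passed, and their groups did not overlap. Rpl4 (chromosome 9, 64173387 to 64178562), a large subunit protein that lines the exit tunnel, had signals of 1511, 1556 and 1864, then 1184, 1050 and 1041, then 1825 and 1450, with a log2 fold change of -0.58 (adjusted p = 0.0797). Its supernatant arrays overlapped those of unused media (-0.01, adjusted p = 0.991 from limma).

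Rpl23 (chromosome 11, 97777526 to 97782439) is one of the large subunit proteins known from human cells to bind Mdm2 and restrain its action on p53. Its brightest probe had signals of 24349, 23096 and 24680 with unused media, 20378, 14584 and 14706 with cardiomyocyte media, and 21855 and 18879 with media supernatant. The log2 fold change with cardiomyocyte media was -0.56 (standard error 0.18, adjusted p = 0.105 from limma), and it was -0.21 and -0.49 for its other tested probes. The lower values of this probe came from chip 2, and with chip as a block it was -0.31 (adjusted p = 0.413). Rpl5, which binds Mdm2 too and carries 5S ribosomal RNA, had signals of 7021 to 8405, 5525 to 8591 and 5729 to 7544, and its groups overlapped (-0.16, adjusted p = 0.675). Rpl11, Rpl26 and Rps27a were not analysed here.

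The other members with an unadjusted p under 0.05 were the dimmer probes of Rpl7l1 and Rpl29, Rpl37a and Rps15. Rpl37a, a large subunit protein on chromosome 1, had signals of 14344, 13095 and 13476 with unused media, 11391, 8985 and 8144 with cardiomyocyte media, and 13276 and 8503 with media supernatant. The arrays of chip 2 were the lowest, and its log2 fold change of -0.53 with cardiomyocyte media (adjusted p = 0.161 from limma) became -0.19 with chip as a block. Rps15, a small subunit protein on chromosome 10, had signals of 11145, 13762 and 11479, then 9069, 6670 and 10307, then 11250 and 10778. All of cardiomyocyte media lay below all of unused media, and the supernatant overlapped them (-0.50, adjusted p = 0.165). The dimmer Rpl29 probe had signals of 38.4 to 54.8, then 24.2 to 32.4, then 30.2 and 31.1 (-0.44, adjusted p = 0.161), and the brighter one overlapped between unused and cardiomyocyte media (-0.23).

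The groups did not overlap for 18 members lower and 1 higher with cardiomyocyte media, 26.5% of the members for the lower ones, beside 14.0% of all tested probes lower and 13.1% higher. The member above was the dim probe of Rps19, with signals of 46.5 to 58.7 against 65.0 to 68.5. The highest log2 fold change of a member was that of Rpl39l, a paralogue of Rpl39 known in mice from male germ cells. Its signals were 46.7, 41.1 and 51.4 with unused media and 47.6, 91.7 and 81.7 with cardiomyocyte media (0.49, standard error 0.23, adjusted p = 0.228 from limma). With media supernatant they were 43.3 and 68.8, and Rpl39l overlapped in every comparison with unused media. The 3 highest arrays are those of chip 2, and with chip as a block the log2 fold change was 0.08. The dimmer probe of Rpl38 went the same way, with signals of 716, 975 and 1195 with unused media, 843, 1601 and 1621 with cardiomyocyte media, and 702 and 1027 with the supernatant (0.46, adjusted p = 0.363, and -0.05 with chip as a block). The dimmer probe of Rps24 had 219, 238 and 345, then 380, 418 and 293, then 245 and 239 (0.43, adjusted p = 0.243).

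**Figure D3:**
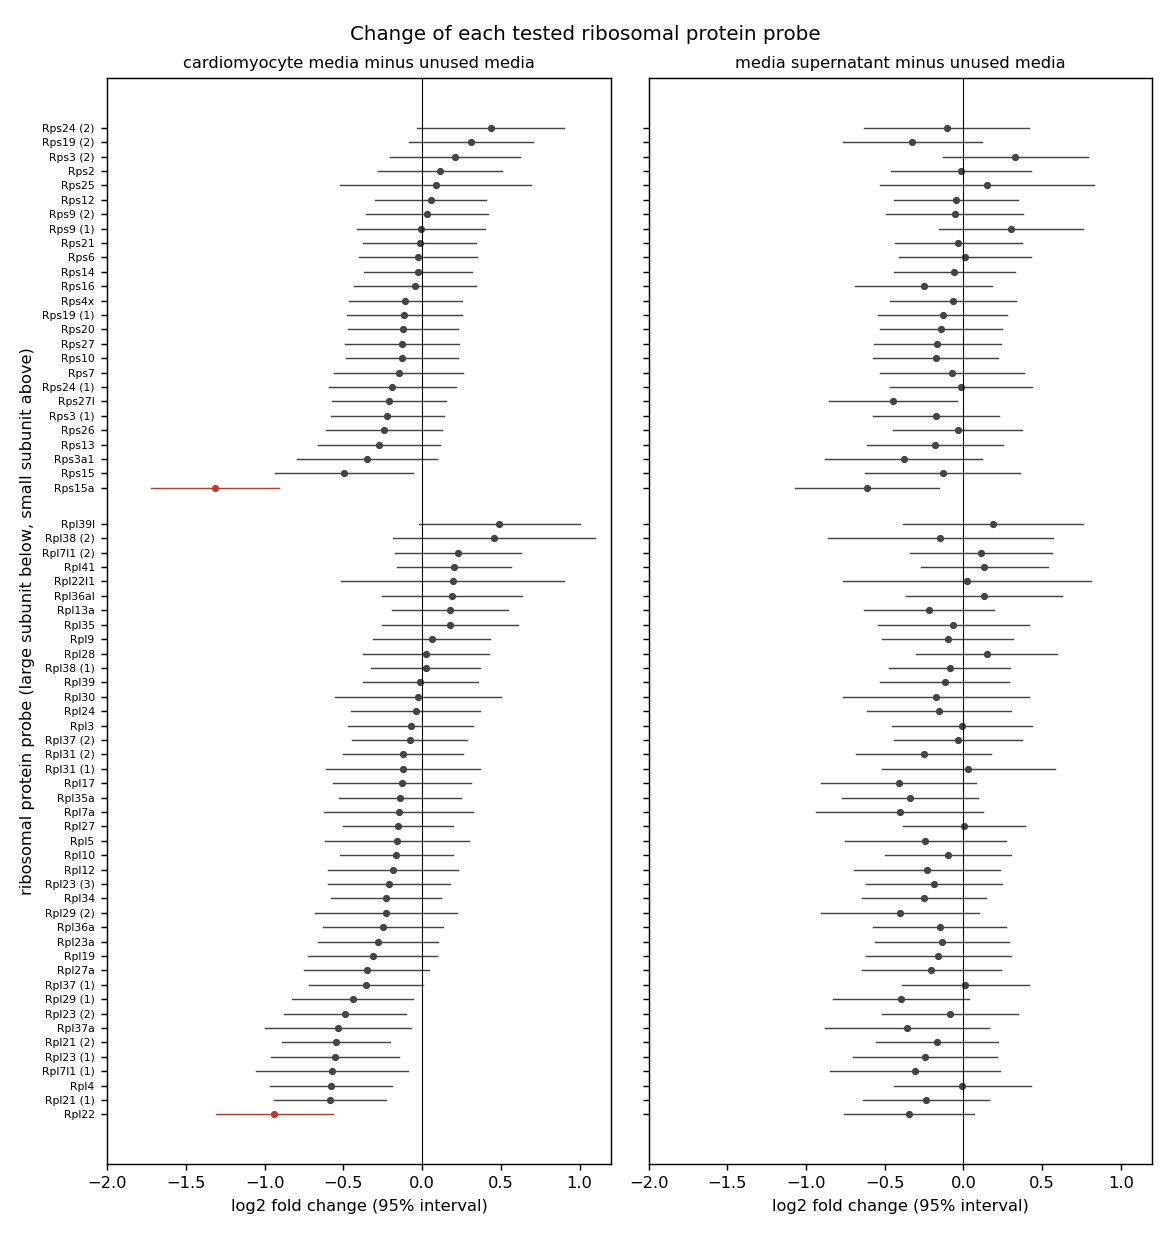
Log2 fold change with its 95% interval for each of the 68 tested probes, with cardiomyocyte media (left) and media supernatant (right) against unused media. Probes are in order of the left panel within the large subunit (below) and the small subunit (above), probes of one gene are numbered, and red marks an adjusted p under 0.05, reached on the left by Rps15a (-1.32) and Rpl22 (-0.94) and on the right by none.

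The intervals set what these arrays allow for the other members. The median half-width of the 95% interval was 0.39 on the log2 scale with cardiomyocyte media. The interval lay within -1 and 1 for 63 of 68 members and within -0.5 and 0.5 for 19. The tested probes at or above the members' median brightness were 101, with the brighter members among them. Of these 1 passed the test with cardiomyocyte media, with a log2 fold change of 1.15 in size. Rps6, the small subunit protein phosphorylated by the S6 kinases, had signals of 15217 to 19965 with unused media and 16968 to 17958 with cardiomyocyte media (-0.03, 95% interval -0.40 to 0.35). Rps4x and Rpl10, X-linked members of the small and the large subunit, lay at -0.11 and -0.17.

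With media supernatant, compared to unused media, no ribosomal protein probe passed the test. Of 68 members 0 were called in either direction by limma, where 1.56% of all tested probes were called, 0.533% higher and 1.02% lower. An unadjusted p under 0.05 was reached by 2 members lower, Rps15a and Rps27l, and 0 higher (5.43% and 5.45% of all tested probes). The median log2 fold change was -0.13, -0.15 for the large and -0.09 for the small subunit, beside 0.01 for all tested probes. Below 0 lay 55 of 68 members, compared to 48.3% of all tested probes. The interval lay within -1 and 1 for 67 members. The groups did not overlap for 22 members lower and 2 higher, beside 15.1% and 15.3% of all tested probes. This comparison shares the arrays of unused media with the one before.

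Rps27l, a paralogue of Rps27 known in human cells as a target of p53, had signals of 9180, 9467 and 10953 with unused media, 8084, 8539 and 8897 with cardiomyocyte media, and 6787 and 7668 with media supernatant. The supernatant arrays were lower than all others, and the log2 fold change was -0.45 (standard error 0.18, adjusted p = 0.415 from limma). Rps27 itself had signals of 11974 to 12368 with unused media and 10778 and 11003 with the supernatant (-0.17, adjusted p = 0.767). The highest values with the supernatant belonged to a probe of Rps3, a small subunit protein that in human cells also takes part in DNA repair. It had signals of 7000 to 8503 with unused media and 9406 and 10348 with the supernatant (0.33, adjusted p = 0.597), while the other probe of Rps3 lay at -0.18. A probe of Rps9 lay at 0.30 and the other at -0.06. Rpl39l lay at 0.19 and Rpl28 at 0.15. At the lower end, both probes of Rpl29 lay at -0.40.

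Media supernatant and cardiomyocyte media were compared as well, as this sets the media before and after ultracentrifugation beside each other. By limma 0 members were called, where 3.71% of all tested probes were called, 1.26% higher and 2.46% lower. An unadjusted p under 0.05 was reached by 3 members higher (Rps15a, Rpl22 and Rpl4) and 2 lower (the dimmer probes of Rps19 and Rps24), beside 6.6% and 6.9% of all tested probes. Below 0 lay 35 of 68, and the median was -0.02 beside 0.02 for all tested probes. The dimmer Rps24 probe was lower with the supernatant than on every array of cardiomyocyte media (-0.54, adjusted p = 0.348). The brighter probe had signals of 16464 to 23438 with cardiomyocyte media and 20680 and 23096 with the supernatant (0.17, adjusted p = 0.836). Rpl13a, a large subunit protein known in human cells to leave the ribosome and silence mRNAs after interferon-γ, had signals of 1697, 1853 and 1522 and then 1216 and 1336 (-0.40, adjusted p = 0.392).

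Where a gene had more than 1 tested probe, the probes did not always move alike. Of 11 such genes 4 had log2 fold changes that differed by over 0.5 in a comparison, Rpl7l1, Rps19, Rps24 and Rps3. For Rpl7l1, named for its likeness to Rpl7, the brighter probe had signals of 642 to 917 with unused media and 881 to 1005 with cardiomyocyte media (0.23). The dimmer probe, detected on 6 arrays, had 27.3 to 46.3 and 13.8 to 19.8 (-0.57). Neither passed the test. The probes of Rpl21, Rpl31 and Rps9 differed by at most 0.04 with cardiomyocyte media. Of the 9 probes that were not tested, 4 belonged to genes with another tested probe and 5 were the only probe of Rpl6, Rpl14, Rpl3l, Rps23 and Rps23rg1. The dimmest tested probes were 1 of Rpl37, detected on 2 arrays and on none of cardiomyocyte media, and that of Rpl17, detected on 3 arrays and on none of the supernatant, so no fold is given for them. The 9 untested probes had mean signals of 6.43 to 13.9, and nothing is drawn from them about the transcripts.

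Among the paralogues, Rpl22l1 can take the place of Rpl22 in the ribosome, and in mice its mRNA is held down by Rpl22. Its signals were 33.3, 45.6 and 53.2 with unused media, 28.8, 89.0 and 50.7 with cardiomyocyte media, and 28.4 and 66.0 with media supernatant. The groups overlapped (0.19, 95% interval -0.51 to 0.90, adjusted p = 0.748 from limma). Its values on chip 2 were higher than those of the same medium on chip 1, and with chip as a block the value was -0.40 (adjusted p = 0.457). Rpl36a had signals of 5052 to 5542 with unused media and 3869 to 5231 with cardiomyocyte media (-0.25). Rpl36al, its paralogue, had 7321 to 8503 and 7708 to 10583 (0.19). With chip as a block the values were -0.28 for Rpl36a and -0.10 for Rpl36al, so that the sign of Rpl36al turned. Neither difference passed the test. Rpl39 and Rpl3 lay at -0.01 and -0.07 with cardiomyocyte media. Rpl7, Rpl10l and Rps4l were not analysed here.

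Scaling between arrays bears on these bright probes, since it sets their signals against those of the whole array. Before any scaling, the members held 8.98, 8.96 and 8.83% of the background-corrected signal on the arrays of unused media. They held 8.36, 9.02 and 7.97% with cardiomyocyte media, and 8.0 and 8.49% with media supernatant. The means were 8.92 ± 0.08% (SD, n = 3), 8.45 ± 0.53% (SD, n = 3) and 8.25 ± 0.34% (SD, n = 2). The supernatant arrays lay below unused media, and cardiomyocyte media overlapped them through replicate 2.

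Under 8 scalings the median log2 fold change of the members with cardiomyocyte media ran from -0.15 (quantile normalization learned without the members) to -0.01 (a common median of the detected probes). With no scaling it was -0.05. Relative to the median of all tested probes, the values ran from -0.15 to -0.07. This relative value was -0.07 with no scaling, a common median, a common 75th percentile and a common mean of the brightest 10%. Those scalings differ only by a constant for each array, so the relative value cannot differ among them in any comparison. With media supernatant the median of the members ran from -0.17 (a common mean of the brightest 10% of probes) to 0.01 (no scaling), so its sign was not fixed. Without scaling the median of all tested probes with the supernatant stood at 0.13, and relative to all tested probes the members ran from -0.18 to -0.12. The small subunit with cardiomyocyte media went from -0.11 with quantile normalization to 0.04 with a common median, and the large subunit from -0.15 to -0.04. Rpl22 and Rps15a were called lower under each of the 8 scalings and no other member was called with them, and with media supernatant 0 members were called under each.

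**Figure D4:**
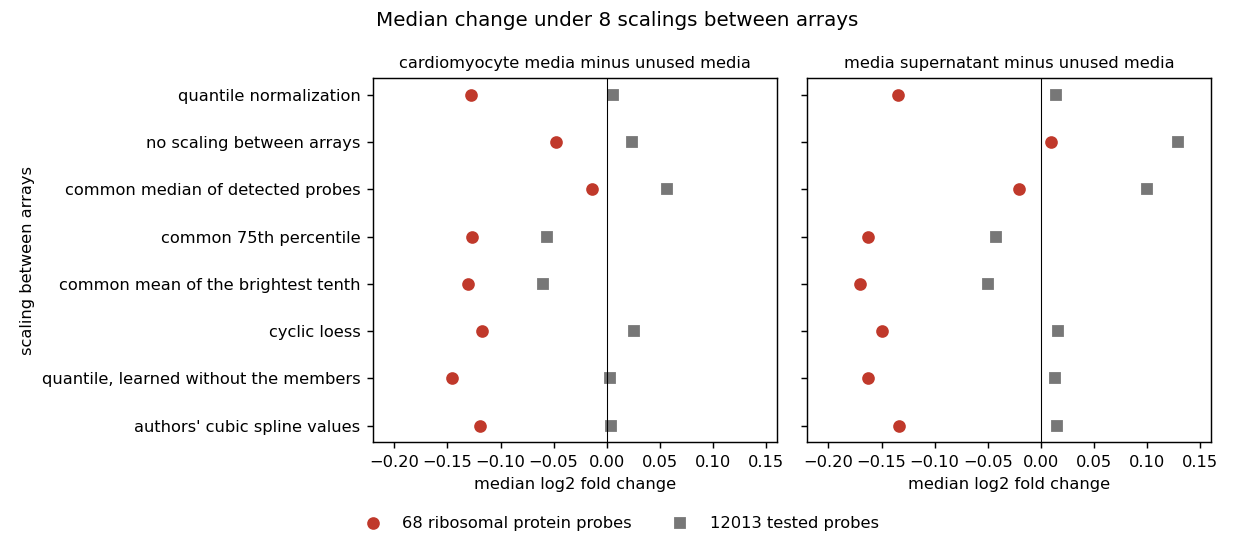
Median log2 fold change of the 68 ribosomal protein probes (circles) and of all 12013 tested probes (squares) under 8 scalings between arrays, with cardiomyocyte media (left) and media supernatant (right) against unused media. The members lie left of all tested probes in each row, by 0.07 to 0.15 on the left and 0.12 to 0.18 on the right, while their distance from 0 changes with the scaling. Rows that differ only by a constant for each array must show the same gap, so they are not separate evidence.

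By array, the median of the members was 13.07, 13.17 and 13.22 on the log2 scale after quantile normalization with unused media. It was 13.01, 13.04 and 13.09 with cardiomyocyte media, and 12.98 and 13.03 with media supernatant. Without scaling the same medians were 12.85, 13.21 and 13.16, then 12.83, 13.08 and 13.36, then 12.98 and 13.18, so the groups overlapped. The members' median minus that of all tested probes was 5.90, 5.99 and 6.16 with unused media without scaling. It was 5.77, 6.11 and 6.0 with cardiomyocyte media, and 5.74 and 5.98 with the supernatant. The lowest values were those of the treated arrays of chip 1. With chip as a block, 0 of 68 members passed an adjusted p under 0.05 for the chip by limma, beside 3.10% of all tested probes. Chip 2 minus chip 1 was 0.89 for Rpl22l1 (adjusted p = 0.0611 from limma) and -0.51 for Rpl37a (adjusted p = 0.100). The members' median with chip as a block was -0.10 with cardiomyocyte media and -0.12 with the supernatant.

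**Figure D5:**
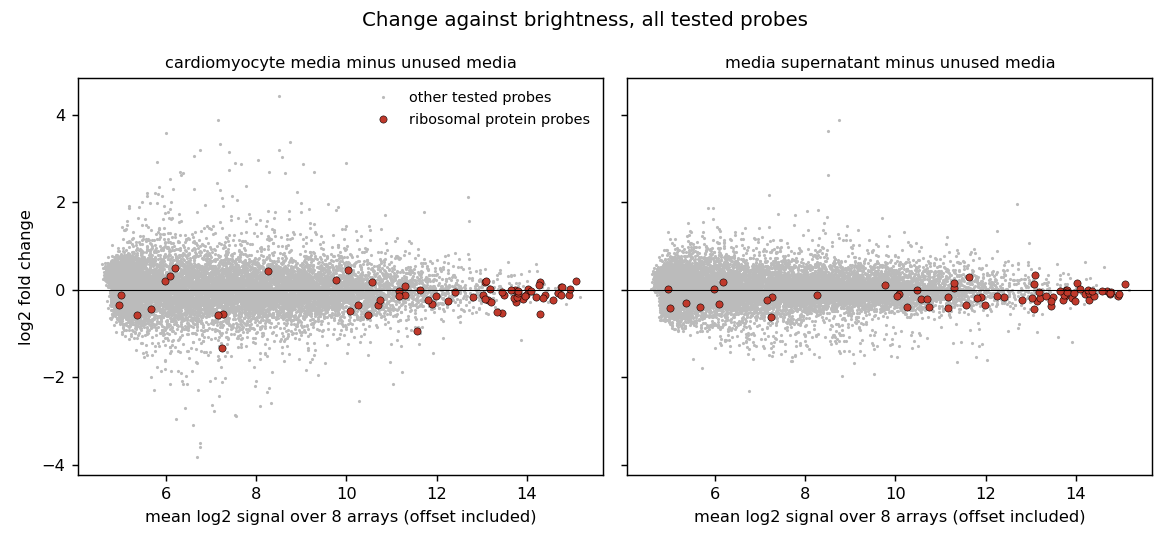
Log2 fold change against mean log2 signal over the 8 arrays for all 12013 tested probes (grey) and the 68 ribosomal protein probes (red), with cardiomyocyte media (left) and media supernatant (right) against unused media. Most members sit at the bright end close to 0, and Rps15a (-1.32) and Rpl22 (-0.94) are the lowest members on the left.

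Other genes of translation were counted from lists. Of the ribosomal proteins under other symbols 4 probes of 3 genes were tested, and 0 were called in any of the 3 comparisons by limma. Fau, whose product releases a small subunit protein, lay at 0.02 with cardiomyocyte media, and the probe of Rplp1, of the stalk that recruits elongation factors, held the top signal that quantile normalization can give (38411) on 6 of 8 arrays, so no fold is given for it. The brighter probe of Rplp0, the base of the stalk, had the smallest p (-0.39, adjusted p = 0.202). Of translation factors and other genes with 5′ terminal oligopyrimidine mRNAs 31 probes of 20 genes were tested, with 0 called and a median of -0.16 with cardiomyocyte media, -0.08 with the supernatant and 0.08 between the treatments. At an unadjusted p under 0.05, 2 of these were higher and 1 lower with cardiomyocyte media, beside 11.9% and 11.8% of all tested probes. Those of the list were the elongation factor subunit Eef1d (0.58, adjusted p = 0.0756 from limma) and the intermediate filament protein Vim (0.54, adjusted p = 0.183). The lower one was the elongation factor subunit Eef1b2 (-0.52, adjusted p = 0.21). Other probes of these genes did not all go the same way, as the brighter probe of Eef1d lay at -0.05 and the other probes of Eef1b2 at -0.44 and 0.24. Of mitochondrial ribosomal proteins, which build a separate ribosome, 98 probes of 72 genes were tested with 0 called, and their medians were -0.04, -0.14 and -0.12. At an unadjusted p under 0.05, 5 (5.10%) were lower and 0 higher with cardiomyocyte media, beside 11.8% and 11.9% of all tested probes. Of the S6 kinases 4 probes were tested with 0 called and medians of 0.11, -0.19 and -0.14.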

How the data were processed

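RNA of 8 samples was hybridised to Illumina MouseRef-8 arrays and samples were grouped by their labels. The deposited table holds the linear intensity of every probe before normalization, its bead number, bead standard error and detection p-value, as the authors took them from BeadStudio, for which the submitters' notes name version 3.3. They also deposited intensities after background subtraction and cubic spline normalization, used as an alternative. In R 4.3.3 with limma 3.58.1 background was corrected by normexp with negative controls inferred from the detection p, an offset of 16 was added, quantile normalization was run over the 8 arrays and log2 was taken. Of 25697 probes, 23978 had 1 gene symbol and 12013 of these were tested, each probe by itself. The test was limma's lmFit and eBayes with 1 coefficient per group over 8 arrays, two-sided and adjusted by Benjamini-Hochberg over all tested probes of a comparison. The number of arrays limits the precision.

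The members, the lists and the rule for named probes were chosen with earlier results of these data known. Named were the called members or, with under 3 in a direction, the 3 smallest p, the 3 brightest and dimmest, genes whose probes differed by over 0.5, paralogues and members with known roles. Rpl37a, Rps15, Rpl31 and the dimmer Rpl38 probe were named after their values were seen. Before use, the model was tested on simulated data. Alternatives were background, offset, scaling, filters, probes per gene, spread, chip, replicate number and leaving out each array. Sequences come from RefSeq, GRCm38.p6.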

Additional observations from a re-analysis of the deposited data

How the results depend on the processing

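With cardiomyocyte media the main count was 2 members called. It was 4 without background correction, 6 with an offset of 50, 4 without a detection filter, 4 with detection on all 8 arrays, 4 with trend and robust settings, 8 with array weights (7 lower and 1 higher), 0 within chip 1 and 1 with chip as a block without scaling, the last chosen after seeing the data. Leaving out each array gave 2 to 4, with 4 without cardiomyocyte media replicate 1, when the brightest Rpl23 probe (-0.71, adjusted p = 0.0303 from limma) and Rpl39l (0.72, adjusted p = 0.0469) passed too. The members called beside Rpl22 and Rps15a in these alternatives were Rpl4, both probes of Rpl21, the brightest of Rpl23, Rps15 and Rpl39l. The share of all tested probes that passed in each of these settings is not given here. The counts therefore do not show whether the members changed more than other probes. The cause of these changes was not tested. Rpl22 passed in 28 of 30 alternatives and Rps15a in 29 of 30. These are not 30 separate checks, as leaving out either supernatant array gave the same fit as using only the 2 groups compared. Rpl22 was lost within chip 1 (adjusted p = 0.266) and with chip as a block without scaling (adjusted p = 0.153), and Rps15a within chip 1 (adjusted p = 0.0717).

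The median log2 fold change with cardiomyocyte media, -0.127, became -0.0477 without scaling, -0.0142 with a common median and -0.235 with chip as a block and a common median (added after seeing the data). Leaving out each array it lay between -0.168 and -0.0868. With media supernatant, -0.135 became 0.00954, -0.0201 and -0.206 in the same settings, and -0.178 to -0.0800 without single arrays, the last without unused media replicate 3. Its count of 0 did not move. Between the treatments 1 member was called without background correction, with an offset of 50 and with trend and robust settings (Rpl22), and 1 with chip as a block and a common median (Rps15a). The median of -0.0185 became 0.0720 with chip as a block without scaling and 0.0403 with chip as a block and a common median. For the named probes, 108 results had 3201 values under the alternatives, of which 20 passed the threshold anew, 3 no longer passed it, 211 of results with no call moved by more than the spread and 0 reversed a call.

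With replicate number as a block 2 members were called with cardiomyocyte media (median -0.127), 0 with the supernatant (-0.103) and 0 between the treatments (-0.0274). Deviations from the group means correlated at -0.23 to 0.72 in the 7 same-numbered pairs and at -0.72 to 0.51 in the other 14. The deviations of the 2 supernatant arrays mirror each other by construction, so the -0.72 follows from the 0.72. The highest same-numbered value is a pair on chip 1, so number and chip cannot be told apart there. As the correlation was not over 0.1 in every same-numbered pair, the numbers were not taken to pair the samples.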
